A study of Rattus norvegicus with 63 samples.

Results

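Dehydroepiandrosterone (DHEA), an adrenal steroid that is a precursor of androgens and estrogens, was compared with its vehicle in the liver of male Wistar Hanover rats. The comparison holds 6 of the 63 arrays of the series: the 3 animals whose titles and treatment agent name DHEA, and the 3 vehicle animals that the labels assign to the same control group, called control set 1. The DHEA animals received 600 mg/kg/day by gastric gavage for 14 days. The animals of control set 1 received methylcellulose by the same route for 14 days. All animals were 8 to 10 weeks old and were dosed in groups of 5, and RNA of 3 animals per group was hybridised to Affymetrix RAE230A arrays, 1 array per animal. Per the study's methods, the treated animals profiled were picked after histopathology among those with some liver change, so a treated group does not stand for all rats that were dosed. The study asked whether short dosing separates classes of liver carcinogens, and it places DHEA among the non-genotoxic ones. For context, 3 further treatments that share control set 1 were used: Wy-14643 at 60 mg/kg/day for 3 days, acetamide (AA) at 3000 mg/kg/day for 14 days and methylcarbamate (Mcarb) at 400 mg/kg/day for 14 days, with 3 animals each.

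In rodents, DHEA at high dose is known as a peroxisome proliferator. Peroxisome proliferators act through the nuclear receptor PPARα, which pairs with the retinoid X receptor and binds direct repeats of a short motif near genes of fatty acid uptake, activation and breakdown in peroxisomes, mitochondria and the endoplasmic reticulum. Wy-14643 is a synthetic ligand of this receptor, whereas DHEA is also a steroid that liver enzymes convert and conjugate.

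Values are RMA levels on the log2 scale, so that 1 unit is a doubling, and they ran from 3.96 to 15.11 over the deposited table. Array medians lay between 7.42 and 7.51 over the 63 arrays. The hepatocyte marker Alb was at 15.08, 15.05 and 15.08 in the DHEA animals, near the top of this range and as a liver sample should be. Control set 1 was compared with the 3 other methylcellulose sets of the series, and of 10411 genes 89 were higher in set 1 (0.855%) and 65 lower (0.624%). The 3 other sets form a second baseline, and list counts against it are given below where they move most.

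DHEA shifted a broad set of liver genes, with enzymes of fatty acid use at the top. A gene, represented by 1 probe set, was called when limma's adjusted p was under 0.05. By this rule 1018 genes rose (9.78% of the 10411 tested) and 973 fell (9.35%), and these shares are the background for every list below. Over all 15866 probe sets 1476 rose (9.3%) and 1328 fell (8.37%), and 841 fell without DHEA animal 3. With a change of at least 1.5-fold also required, 264 genes rose (2.54%) and 262 fell (2.52%). The rises reached further than the falls: 29 genes (0.279%) rose by at least 2 on the log2 scale and 2 genes (0.0192%), Apoa4 and Obp3, fell by as much. The median difference over all genes was 0.01.

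Acot1, a cytosolic acyl-CoA thioesterase that releases free fatty acids from their CoA esters, had levels of 11.65, 12.19 and 12.01 in DHEA animals 1 to 3 and 4.87, 4.83 and 4.66 in control animals 4 to 6. The lowest DHEA animal lay above the highest control by several log2 units. The difference was 7.16 ± 0.24 (SE, n = 3 per group), a 143-fold rise, with an adjusted p of 9.58e-28. The control levels lie close to the bottom of the scale, where RMA compresses ratios. Vnn1, the pantetheinase that splits pantetheine in the turnover of CoA, was at 10.71, 11.21 and 11.19 under DHEA and at 6.64, 5.80 and 6.88 in the controls, a rise of 4.60 ± 0.32 (adjusted p = 1.04e-15). Hdc, which makes histamine from histidine, was at 9.91, 10.68 and 10.60 against 6.18, 6.05 and 6.13, a rise of 4.28 ± 0.16 (adjusted p = 8.52e-26). For both genes the groups stood apart without overlap.

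The other 9 genes among the 12 with the largest rises were the thioesterases Acot2 (3.93 ± 0.27) and Acot4 (3.16 ± 0.29), the aldehyde dehydrogenase Aldh1a1 (3.91 ± 0.46), Aig1 (3.61 ± 0.14), a hydrolase of fatty acid esters of hydroxy fatty acids, the NADPH-producing malic enzyme Me1 (3.36 ± 0.28), carnitine acetyltransferase Crat (3.33 ± 0.22), the fatty acid translocase Cd36 (3.04 ± 0.30), the dienoyl-CoA isomerase Ech1 (2.96 ± 0.16) and the carnitine palmitoyltransferase Cpt1b (2.95 ± 0.28). Acot1 and Acot2 are close copies of each other, and probe sets of such families can share signal. Among the 21 groups of the series, the DHEA mean was the highest for Hdc, Acot2, Me1, Crat, Acot4, Ech1 and Cpt1b and the second highest, after Wy-14643, for Acot1, Vnn1, Aig1 and Cd36. Aldh1a1 was the exception, with DHEA in place 4. The genes were chosen for their size, so these ranks are a description.

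**Figure D1:**
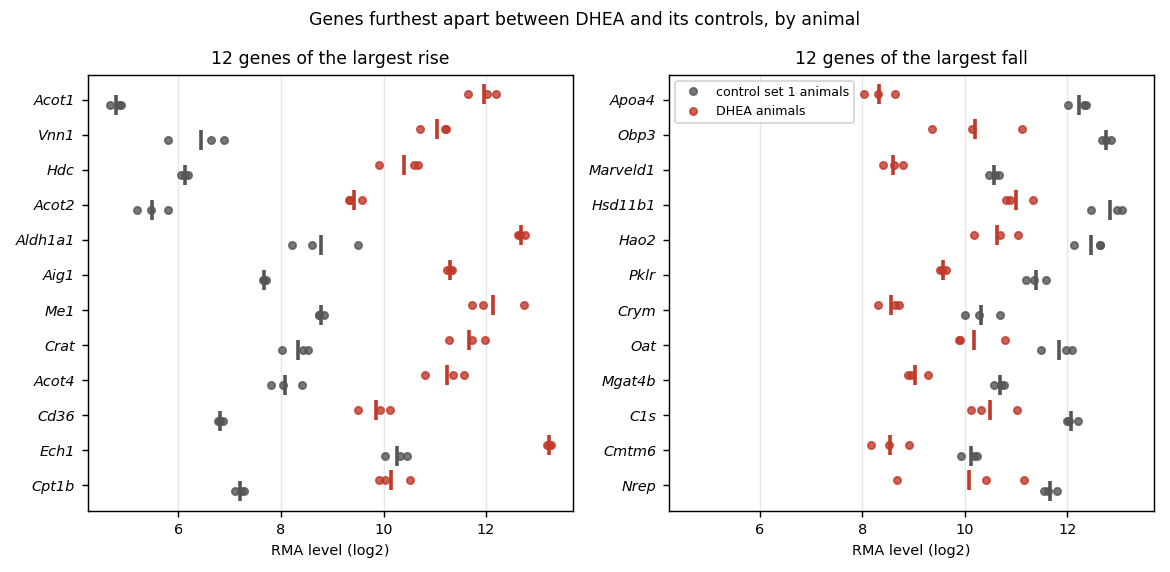
RMA level (log2, horizontal axis) of the 12 genes with the largest rise (left) and the 12 with the largest fall (right) between DHEA and control set 1. Dots are animals, 3 per group, and vertical ticks are group means. In each of the 24 genes the 3 DHEA animals lie on 1 side of the 3 controls, with the widest gap for Acot1 and a wide spread of the DHEA animals for Obp3 and Nrep.

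At the other end, Apoa4, an apolipoprotein of chylomicrons and high-density lipoprotein, was at 8.64, 8.31 and 8.03 in the DHEA animals and at 12.37, 12.02 and 12.32 in the controls. It fell by 3.91 ± 0.44 on the log2 scale (adjusted p = 2.24e-09). Its DHEA mean was the lowest of the 21 groups, and the 19 groups other than DHEA and Wy-14643 had means between 9.30 and 12.24. Obp3, a male-predominant α2u-globulin of the lipocalin family, was at 9.36, 10.15 and 11.12 against 12.85, 12.76 and 12.68 and fell by 2.56 ± 0.48 (adjusted p = 7.77e-05), with DHEA animal 3 closest to the controls.

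The remaining falls among the 12 largest touched steroid, sugar and amino acid enzymes. Hsd11b1, which regenerates active glucocorticoid, fell by 1.83 ± 0.21, the peroxisomal hydroxyacid oxidase Hao2 by 1.83 ± 0.29 and the liver pyruvate kinase Pklr by 1.82 ± 0.26. The thyroid hormone-binding protein Crym fell by 1.76 ± 0.28, ornithine aminotransferase Oat by 1.66 ± 0.37, the N-glycan branching enzyme Mgat4b by 1.64 ± 0.17, the complement protease C1s by 1.60 ± 0.16 and the membrane protein Cmtm6 by 1.58 ± 0.17. Marveld1, another membrane protein, fell by 1.97 ± 0.28 on its brighter probe set, while its second probe set gave -0.17 (adjusted p = 0.426). Nrep was at 11.15, 10.42 and 8.68 in the DHEA animals against 11.80, 11.55 and 11.62, a fall of 1.57 ± 0.39 that rested on DHEA animal 3: without it the adjusted p was 0.128.

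**Figure D2:**
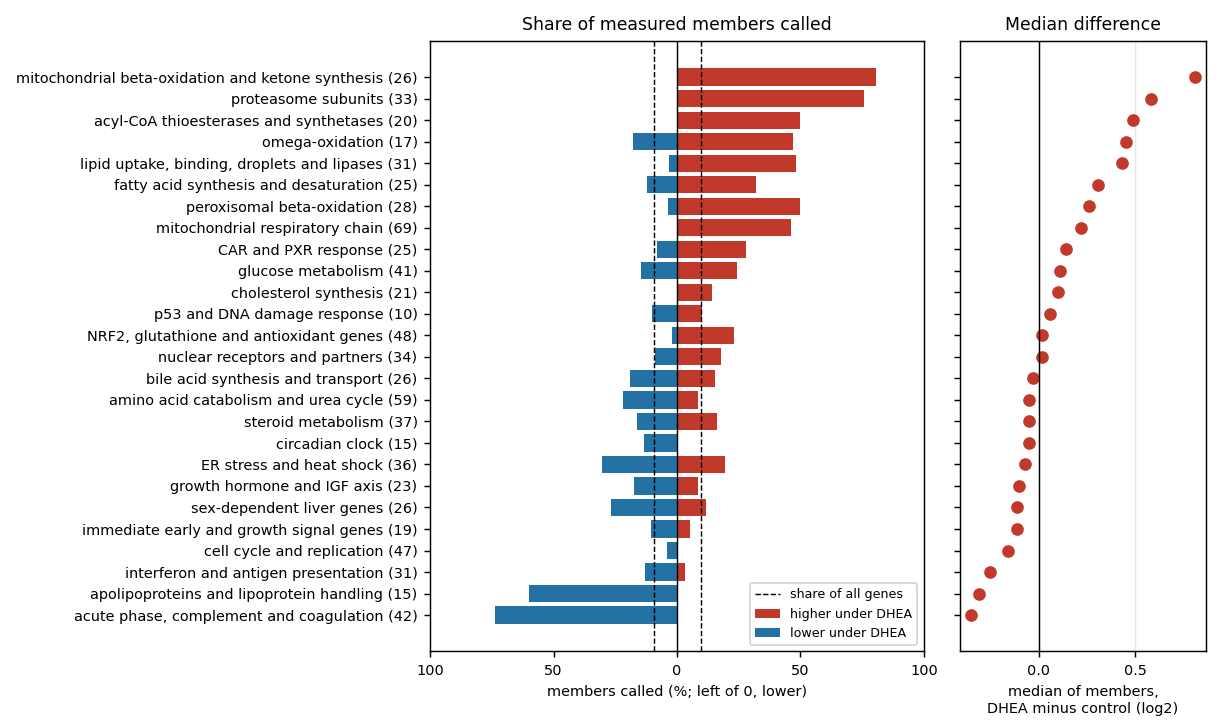
Share of measured members called higher (right of 0) or lower (left of 0) under DHEA against control set 1, in percent, for 26 gene lists (left panel, number measured in brackets, dashed lines the shares of all genes), and the median log2 difference of each list's members (right panel). Mitochondrial beta-oxidation and the proteasome have the highest medians, and apolipoproteins and the acute phase, complement and coagulation list have the lowest.

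Genes of mitochondrial beta-oxidation and ketone synthesis rose in 21 of 26 measured members and fell in none, with a median difference of 0.81 against 0.01 over all genes. All 5 members of the carnitine shuttle, which carries long-chain fatty acids into the mitochondrion, rose: Cpt1b as above, Cpt2 by 1.75, the carnitine-acylcarnitine carrier Slc25a20 by 1.37, the carnitine transporter Slc22a5 by 1.33 and the liver isoform Cpt1a by 1.32. Of the acyl-CoA dehydrogenases, which catalyse the first step of the spiral, 5 of 7 rose, between 0.45 (medium-chain Acadm) and 0.98 (very long-chain Acadvl). Hadha and Hadhb, the subunits of the trifunctional protein, rose by 1.42 and 1.56. The auxiliary enzymes for unsaturated fatty acids, Eci1 and Decr1, rose by 2.74 and 1.77, and all 3 genes of electron transfer from these dehydrogenases (Etfa, Etfb, Etfdh) rose by 0.30 to 0.63.

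In the peroxisome, 14 of 28 members rose and 1 fell, with a median of 0.26. The rises were unequal between steps of the pathway. Ehhadh, the bifunctional hydratase and dehydrogenase that is a classical marker of peroxisome proliferation, was at 14.06, 13.99 and 14.13 in the DHEA animals and at 11.35, 11.10 and 11.01 in the controls, a rise of 2.91 ± 0.24 (adjusted p = 2.86e-13). The second multifunctional enzyme, Hsd17b4, which serves branched and very long chains, rose by 0.73. Pex11a, which drives division of peroxisomes, rose by 2.78 and the carnitine octanoyltransferase Crot, which exports shortened chains, by 2.40.

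Several peroxisomal genes did not pass the test. The oxidases Acox2 and Acox3, of bile acid intermediates and branched chains, stood at 0.04 and 0.20 in difference, the thiolase Scp2 at -0.16, and catalase (Cat), which removes hydrogen peroxide, at 0.06 with a 95% interval of -0.15 to 0.28. Amacr, the racemase of branched chains and bile acid intermediates, fell by 0.95, a call that was lost without DHEA animal 3. Of the 9 measured peroxins and related biogenesis genes, 4 rose (Pex11a, Pex19, Pex6 and Pex14).

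Thioesterases and acyl-CoA synthetases, which act in opposite directions on the CoA ester, rose in 10 of 20 members with none lower (median 0.49). Among thioesterases 6 of 7 rose, and beside the 3 named above these were Acot7 (1.57), the peroxisomal Acot8 (1.51) and Acot12 (1.07). Among synthetases 4 of 13 rose, with Acsl3 (1.75) ahead of the medium-chain Acsm2 (1.18), Acsl4 (0.69) and Acsl1 (0.61).

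**Figure D3:**
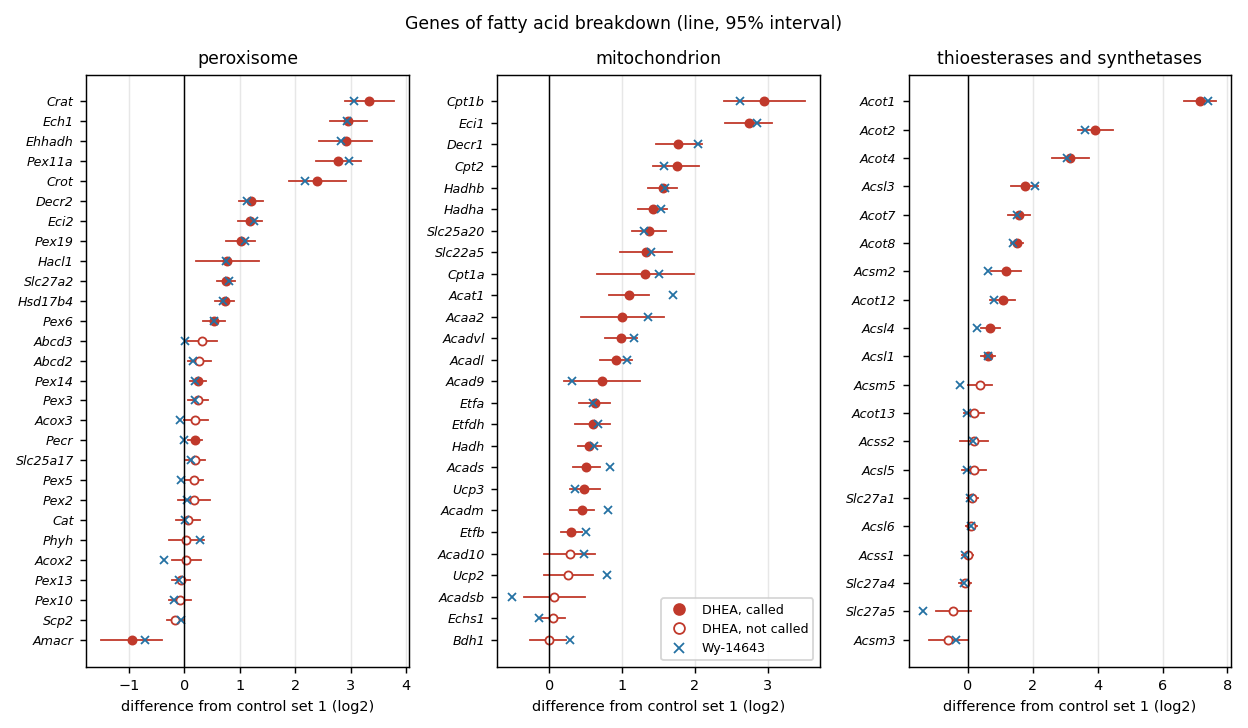
Difference from control set 1 (log2, horizontal axis) for each measured gene of peroxisomal breakdown, mitochondrial breakdown and the thioesterases and synthetases. Filled red circles are DHEA genes that were called, open ones were not, lines are 95% intervals, and blue crosses are Wy-14643 at 60 mg/kg/day for 3 days against the same 3 controls. Acot1 extends to 7.16, and Amacr is the only called gene left of 0.

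Microsomal omega-oxidation moved in both directions. Of 17 members 8 rose and 3 fell (median 0.45). Cyp4a1, the fatty acid omega-hydroxylase induced by PPARα ligands, was at 13.61, 13.62 and 13.76 against 10.93, 10.72 and 10.76, a rise of 2.86 ± 0.19 (adjusted p = 2.01e-16). Its relative Cyp4a3 also rose, and the epoxygenase Cyp2j4 rose by 1.62, whereas Cyp4a8 fell by 0.51, Cyp4f6 by 0.57 and Cyp4f1 by 0.62. The other probe set of Cyp4a8, almost as bright, gave a larger fall, of 1.46. The alcohol and aldehyde steps that finish the reaction rose in 5 of 7 members, among them Aldh3a2 (0.59) beside Aldh1a1. The Cyp4a genes are similar in sequence and their probe sets may cross-hybridise.

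Genes of lipid uptake, binding and storage rose in 15 of 31 members and fell in 1 (median 0.43). Beside Cd36, lipoprotein lipase Lpl rose by 1.69. Of the fatty acid-binding proteins, Fabp3, the heart form, was at 9.36, 8.32 and 10.12 against 7.02, 6.98 and 6.88, a rise of 2.31 ± 0.43, and its DHEA animals spread widely. Fabp1, the abundant liver form, was at 14.35, 14.28 and 14.38 against 14.02, 13.90 and 13.80, a rise of 0.43 ± 0.08 (adjusted p = 2.84e-05), close to the upper end of the scale. The lipid droplet genes Cidea (2.66) and Plin2 (0.71) rose, and so did the lipases Mgll (1.86) and Pnpla2 (1.45) and the pyruvate dehydrogenase kinase Pdk4 (1.45), which diverts the cell from glucose to fat as fuel. Hepatic lipase Lipc fell by 0.44.

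The promoters of these genes were read for the direct repeat that PPARα with its partner binds. Promoters are the 250 bases before to 50 bases after the start of each gene in RefSeq on GRCr8, and 59 of the 68 lipid genes that rose had one. The strict form, AGGTCA, any 1 base, AGGTCA, on either strand, was in 0 of the 59 and in 0.0583% of all 27457 promoters. A looser form, AGGNCA, any 1 base, AGGNCA, was in 1 of the 59 (1.69%), that of Fabp1, against 0.412% of all promoters. A single AGGTCA was in 22.0% of the 59, in 12.8% of the promoters of measured genes and in 15.7% of all promoters. The window is short, so these shares describe its letters only. The Fabp1 promoter is shown because it alone among the 59 holds the looser repeat; it is the 250 bases before the start, on GRCr8 at chr4:104749090-104749339, plus strand, and capitals mark the repeat, which reads on the minus strand 77 to 65 bases before the start.
Fabp1: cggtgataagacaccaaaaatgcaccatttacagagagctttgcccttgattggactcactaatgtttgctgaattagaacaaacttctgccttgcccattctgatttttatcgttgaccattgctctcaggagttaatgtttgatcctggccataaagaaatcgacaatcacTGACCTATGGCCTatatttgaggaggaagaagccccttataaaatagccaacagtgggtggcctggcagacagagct

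Fatty acid synthesis did not move as a block. Of 25 members 8 rose and 3 fell (median 0.31). Beside Me1, rises were seen for the elongase Elovl6 (2.12), the delta-6 desaturase Fads2 (1.66), the glycerol-3-phosphate acyltransferase Gpam (1.32), the mitochondrial-side acetyl-CoA carboxylase Acacb (1.07) and the diacylglycerol acyltransferase Dgat1 (0.83). Fatty acid synthase (Fasn) and stearoyl-CoA desaturase (Scd), the standard markers of lipogenesis, did not pass the test, at 0.67 ± 0.35 (adjusted p = 0.195) and 0.54 ± 0.67 (adjusted p = 0.648). Gpam rested in part on the baseline, with 0.62 against the 3 other methylcellulose sets (adjusted p = 0.00046). Cholesterol synthesis rose in 3 of 21 members (Fdps, Lss and Sc5d), but 0 of the 21 were called without DHEA animal 3, and against control sets 2, 5 and 6 the list had 1 rise and 2 falls.

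Apolipoproteins and lipoprotein enzymes fell in 9 of 15 members and rose in none (median -0.31). Beside Apoa4, the falls were in Apom (0.96), a carrier of sphingosine-1-phosphate, in Apoa1 (0.66), Apoa5 (0.55), Apoa2 (0.54), Apoc3 (0.36) and Apoh (0.18), and in Lcat (0.29), which esterifies cholesterol on high-density lipoprotein, and Lipc. With at least 1.5-fold required, 3 of the 15 remained below the controls.

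The receptors themselves moved little. Of 34 nuclear receptors and partners 6 rose and 3 fell (median 0.02), or 5 rose and 5 fell against control sets 2, 5 and 6. Ppara was at 6.84, 6.92 and 6.87 under DHEA, a difference of 0.18 ± 0.10 that did not pass (adjusted p = 0.209). Its partner Rxra was at 8.72, 8.80 and 8.66 against 8.04, 8.23 and 8.06 and rose by 0.62 ± 0.10 (adjusted p = 1.04e-05). Rxrg rose by 0.65, and the hepatocyte factors Cebpa and Hnf4a rose by 0.68 and 0.59. The other probe set of Hnf4a gave 0.27 and was not called (adjusted p = 0.0812). The glucocorticoid receptor Nr3c1 fell by 0.83, while its second, dimmer probe set gave -0.16 (limma adjusted p = 0.263).

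Targets of the xenobiotic receptors CAR and PXR rose in 7 of 25 members and fell in 2 (median 0.14). The cytochromes that define this response were mostly not called: 1 of 9 rose, the PXR target Cyp3a23-3a1, by 0.64. Among the 6 rises outside the cytochromes were the glutathione transferase Gsta3 (2.51), the carboxylesterase Ces2c (1.96), the efflux pump Abcc3 (1.08), the organic anion transporter Slco1a4 (0.85), the cytochrome P450 reductase Por (0.80) and the epoxide hydrolase Ephx1 (0.44). The bile canaliculus pump Abcc2 fell by 0.59. In the list of NRF2 targets and antioxidant genes 11 of 48 members rose and 1 fell (median 0.02), led by Gsta3 and the glutathione peroxidase Gpx2 (2.05), and 12 rose and 3 fell against control sets 2, 5 and 6.

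As DHEA is a steroid, enzymes that convert and conjugate steroids were examined as a list. Of 37 members 6 rose and 6 fell (median -0.05). Cyp17a1, the enzyme whose lyase step makes DHEA from pregnenolone derivatives, was at 8.19, 8.41 and 8.29 against 7.05, 6.76 and 7.05 and rose by 1.34 ± 0.17 (adjusted p = 2.45e-08). Hsd11b1 and the sulfate-donor synthase Papss2 fell, by 1.83 and 0.89. Sult2a1, a hydroxysteroid sulfotransferase, showed a difference of -0.04 and Cyp7b1, which hydroxylates DHEA, of -0.05, neither of them called and both near the bottom of the scale (means of 4.63 and 4.71 with DHEA). The aldo-keto reductase Akr1c1 fell by 1.41, a call lost without DHEA animal 3. Smaller rises, by 0.25 to 0.36, were seen for Hsd17b10 to Hsd17b13.

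Male-predominant liver genes fell in 6 of 15 members and rose in none (median -0.36), and female-predominant genes rose in 3 of 11 and fell in 1 (median 0.24). Among the first, Obp3 fell by 2.56, the vitamin C pathway enzyme Gulo by 0.87, Ust5r by 0.69 and carbonic anhydrase Car3 by 0.62. The best-known pair of sex-specific cytochromes gave no clear pattern. Cyp2c11, the main male form, stood at -0.24 with a 95% interval of -0.52 to 0.03 and was not called. Cyp2c12, the female form, was at 10.45, 9.91 and 10.91 against 8.88, 9.15 and 9.11, a rise of 1.38 ± 0.42 (adjusted p = 0.0176) that was lost without DHEA animal 3 (adjusted p = 0.12). Cyp2a1, listed as female-predominant, rose by 0.70. The 1 fall of the female list was Hao2 (-1.83), named above among the 12 largest falls. Prlr was not called on its brightest probe set (1.12, adjusted p = 0.0695) but rose on its others (1.63 and 1.30). Rup2, of the male list, fell only on its dimmest probe set, by 1.79. Without DHEA animal 3, 1 gene of both sex-dependent lists together was called higher and 6 lower. Under Wy-14643, against the same controls, Cyp2c12 was higher by 2.11 and Cyp2c11 lower by 0.44. Obp3 stood at -0.69 there and was not called (limma adjusted p = 0.413). Between DHEA and Wy-14643 it differed by -1.86 (limma adjusted p = 0.00949, or 0.0509 in a fit with the replicate number as a block). Of the male-predominant genes 5 fell under Wy-14643 and none rose, and of the female-predominant genes 1 rose and 2 fell.

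In the growth hormone and IGF axis 2 of 23 members rose and 4 fell (median -0.10), with 1 and 6 against control sets 2, 5 and 6. Igfbp1, a binding protein that rises in fasting, was at 9.29, 10.51 and 11.13 against 8.44, 7.76 and 8.38, a rise of 2.11 ± 0.48. Igf1 fell by 0.62, and its main carrier Igfbp3 was at 8.89, 8.92 and 8.24 against 10.25, 10.16 and 10.02 and fell by 1.46 ± 0.21. Both genes were also lower than under Wy-14643, by 0.43 and 0.73. Neither difference passed in a fit to the DHEA and Wy-14643 arrays alone with the replicate number as a block (adjusted p = 0.081 and 0.114).

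Proteasome genes rose together in number and by modest amounts. Of 33 subunits 25 rose and none fell (median 0.58), with 12 of 13 in the catalytic core and 13 of 20 in the regulatory particle. The mean level of the 33 genes was 10.75, 10.85 and 10.85 in the DHEA animals and 10.36, 10.26 and 10.40 in the controls. Psma1 rose by 0.80, Psmb7 by 0.78, Psmd8 by 0.76 and the ATPase Psmc5 by 0.70. The interferon-inducible subunit Psmb8, which replaces a core subunit in the immunoproteasome and was kept in another list, fell by 1.14.

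In the mitochondrial respiratory chain 32 of 69 members rose and none fell (median 0.22). All 5 parts of the chain took part, with 13 of 34 genes of complex I, 1 of 4 of complex II, 4 of 8 of complex III, 6 of 10 of complex IV and 8 of 13 of ATP synthase. Ndufa3 of complex I was at 12.57, 12.83 and 12.96 against 11.69, 11.70 and 11.73, a rise of 1.08 ± 0.12 (adjusted p = 1.34e-09). The other called genes rose by 0.16 to 0.65, and 3 of the 32 reached 1.5-fold.

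Chaperones moved by compartment. Those of the endoplasmic reticulum fell in 10 of 15 members with none higher (median -0.39), among them Sdf2l1 (1.00) and the master chaperone Hspa5 (0.57). Against control sets 2, 5 and 6, 8 of the 15 fell and 1 rose (median -0.34). Of 12 heat shock genes 4 rose against control set 1 (7 against control sets 2, 5 and 6) and none fell: Hspb1 by 1.91, the mitochondrial chaperonins Hspd1 and Hspe1 by 0.80 and 0.73, and Hsp90ab1 by 0.52. Factors downstream of amino acid shortage and of the eIF2α kinases were mixed, with 3 of 9 stress factors higher and 1 lower, among them asparagine synthetase Asns (2.46) and the pseudokinase Trib3 (1.00).

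Secreted plasma proteins were lower as a group. Of 42 genes of the acute phase, complement and coagulation 31 fell and none rose (median -0.35), with 10 of 17, 10 of 13 and 11 of 12 in these classes. Most falls were small, and 7 of the 31 reached 1.5-fold. The largest were C1s at 10.32, 11.02 and 10.12 against 12.03, 11.99 and 12.22, its partner C1r (1.21), coagulation factor F5 (1.32), prekallikrein Klkb1 (0.91) and complement factor I, Cfi (0.85). The 13 hepatocyte markers, many of them plasma proteins, fell in 9 and rose in 1, the factor Hnf4a. In whole liver, fewer cells of a type and less RNA per cell cannot be told apart, here or in the marker lists below.

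Amino acid breakdown and the urea cycle fell in 13 of 59 members and rose in 5 (median -0.05). The number of falls varied with 1 animal and with the baseline. It dropped to 6 without DHEA animal 3 and grew to 20 against control sets 2, 5 and 6. The proline pathway gave the largest falls, Oat (1.66) and proline dehydrogenase Prodh (1.05), followed by glutaminase Gls2 (0.79) and the histidine ammonia-lyase Hal (0.72). In the urea cycle Ass1, Asl and the ornithine carrier Slc25a15 fell by 0.61, 0.42 and 0.34. In the branched-chain pathway Hibch rose by 1.54. In glucose metabolism 10 of 41 members rose and 6 fell (median 0.11). Pklr, the glucose transporter Slc2a2 (0.74), the gluconeogenic enzyme Pck1 (0.96) and the glycogen precursor enzyme Ugp2 (1.47) fell, while the mitochondrial glycerophosphate dehydrogenase Gpd2 (0.96) and muscle-type aldolase Aldoa (0.72) rose.

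Bile acid genes showed 4 rises and 5 falls in 26 members (median -0.03), 3 and 2 without DHEA animal 3, and 2 and 6 against control sets 2, 5 and 6. Cyp7a1, the rate-limiting enzyme, was not called at 0.49. Cyp8b1, which sets the cholic acid share, rose by 1.52 against control set 1 but by 0.78 against the other sets (adjusted p = 0.11), and it was also not called without control animal 5. Lists with few calls were the p53 response (1 rise and 1 fall in 10 members), the circadian clock (0 and 2 in 15, none without DHEA animal 3) and immediate early genes (1 and 2 in 19, or 0 and 4 against control sets 2, 5 and 6), where the phosphatase Dusp1 fell by 1.41.

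Some genes that the study itself discusses across its compounds were looked up as well. They were chosen on these samples, so their direction is no independent evidence. Aldh1a1 and the epoxide hydrolase Ephx1 (0.44) rose, Mgat4b and Dusp1 fell, and Akr7a3 (-0.03), Glul (-0.27), Jun (-0.32) and Sgk1 (0.65) were not called. The potassium channel subunit Abcc9, looked up beside them but not discussed in the study's main text, fell by 1.38. The Ephx1 call was lost without DHEA animal 2 or without control animal 4 or 6, and that of Abcc9 when the median of its probe sets was used.

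Markers of the non-parenchymal cells of the liver were lower under DHEA, and part of the distance lay in the baseline. Of 13 macrophage markers 9 fell (median -0.63), of 26 stellate cell and matrix markers 13 fell (median -0.34) and of 9 endothelial markers 6 fell (median -0.60), with none higher. The mean level of the macrophage list was 8.91, 9.07 and 8.79 in the DHEA animals and 9.56, 9.62 and 9.47 in control set 1, but the other methylcellulose sets ranged from 8.92 to 9.79. For the stellate list the values were 7.83, 7.76 and 7.62 against 8.18, 8.11 and 8.17, with 7.82 to 7.98 in the other sets. Control set 1 itself was above the other sets in 10 of the 26 stellate and matrix markers and 3 of the 9 endothelial markers.

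Against the 3 other sets alone, an alternative added after the data were seen, 2 macrophage markers (median -0.30), 7 stellate and matrix markers (median -0.16) and 3 endothelial markers (median -0.18) fell. Clec4f, a Kupffer cell lectin, fell by 1.15 against control set 1 and stood at -0.51 against the other sets (adjusted p = 0.105). Col3a1, a fibrillar collagen, fell by 1.18 and by 0.37 (adjusted p = 0.0301) in the same order, and the endothelial receptor Kdr by 0.79 and by 0.40 (adjusted p = 0.0349). The macrophage count was 3 without DHEA animal 3 and 4 without control animal 5, and the endothelial count was 3 without DHEA animal 2. Neither lymphocyte nor neutrophil markers were called in any of 17 and 6 members, and of 13 biliary and oval cell markers 1 rose, Epcam (1.03), a call lost without control animal 5, and 2 fell. The part of these cell types in the plasma protein and matrix results was not tested.

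**Figure D4:**
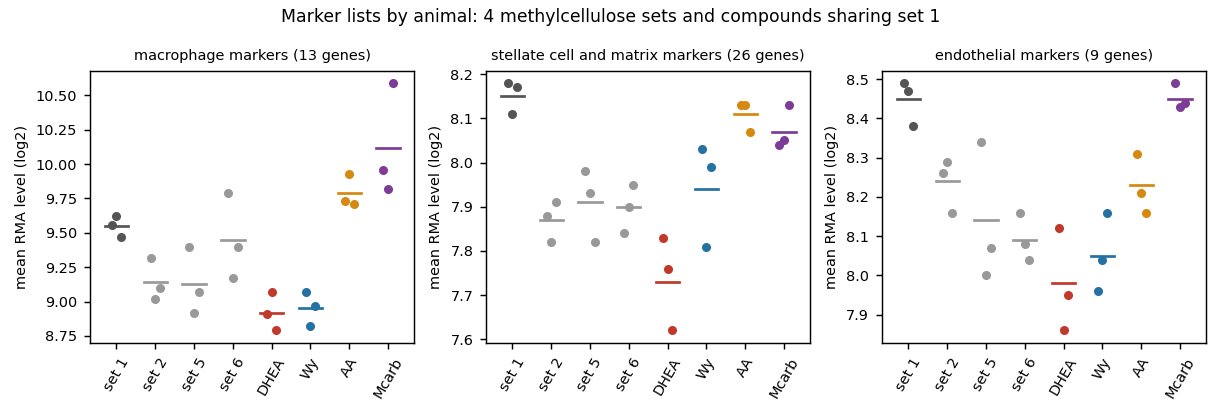
Mean RMA level (log2, vertical axis, not starting at 0) of the macrophage, stellate cell and matrix, and endothelial marker lists in each animal (dots) with the group mean (line), for 4 methylcellulose sets, DHEA, Wy-14643, AA and Mcarb. Control set 1 lies above the other sets for the stellate and endothelial lists, and the DHEA means are below every control set in all 3 panels.

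How far the response to DHEA differed from that to Wy-14643 was tested directly. The compounds were given at different doses and for 14 and 3 days, so compound, dose and time cannot be told apart. Per the labels control set 1 was dosed for 14 days, so counts of Wy-14643 against it set 3-day beside 14-day animals. Of 10411 genes 433 were higher under DHEA (4.16%) and 400 lower (3.84%). Over probe sets the counts were 666 (4.2%) and 567 (3.57%), or 298 and 341 without DHEA animal 3. A fit to the DHEA and Wy-14643 arrays alone, with the replicate number as a block, gave 116 genes higher (1.11%) and 205 lower (1.97%). This block fit differs from the main one in its arrays too, so a call lost with the block cannot be laid to the block alone. Each compound's own comparison with control set 1 uses the same 3 control arrays, so their values are set side by side without a test of likeness: of the 1018 genes that rose with DHEA 450 (44.2%) also rose with Wy-14643, and these are 56.3% of the 799 that rose with Wy-14643 (7.67% of all genes). Of the 973 that fell with DHEA 480 (49.3%) also fell with Wy-14643, or 62.5% of the 768 (7.38%) that fell with it.

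For the genes of fatty acid breakdown few differences between the compounds were called. In the peroxisomal list 2 of 28 were higher under DHEA, in the mitochondrial list 4 of 26 were lower, and in the thioesterase and synthetase list 2 of 20 were higher. These small counts were not stable. With the replicate number as a block the peroxisomal list had 0 calls and the mitochondrial list 1 higher and 1 lower. Without DHEA animal 3 the peroxisomal and the thioesterase and synthetase lists had 0 calls, and without Wy-14643 animal 1 the latter had 2 lower and none higher. Acot1 differed by -0.25 with a 95% interval of -0.74 to 0.23, Ehhadh by 0.08 (-0.40 to 0.56) and Cyp4a1 by 0.06 (-0.32 to 0.44). Acat1, of ketone body and isoleucine metabolism, was lower under DHEA by 0.60. Among the 12 genes with the largest rises under DHEA 1 was called against Wy-14643: Hdc was higher under DHEA by 0.57 (adjusted p = 0.0199), a call lost without Wy-14643 animal 1 (adjusted p = 0.316) and without DHEA animal 3 (adjusted p = 0.134). Wy-14643 animal 1 stood apart from the other 2, with Cpt1b at 8.10 against 10.94 and 10.39 and Cd36 at 8.19 against 10.90 and 10.53.

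Cell cycle genes were the widest gap between the compounds. Of 47 genes of the cell cycle and replication 33 were lower under DHEA and none higher (median -0.66), 31 with the replicate number as a block. Cdk1, the kinase that drives entry into mitosis, was at 6.34, 6.41 and 6.36 with DHEA, at 8.62, 9.75 and 9.07 with Wy-14643 and at 7.23, 7.22 and 7.13 in the controls. The difference between the compounds was -2.77 (adjusted p = 3.72e-07). The phosphatase Cdkn3 (-3.67), the cyclins Ccnb2 (-2.75) and Ccnb1 (-2.48), the microtubule regulator Stmn1 (-2.73), and Ube2c (-2.43), Cdca3 (-2.33) and Cdc20 (-2.18), which act in mitotic entry and exit, completed the 8 genes furthest below Wy-14643, and all 8 kept their call with the block.

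Against control set 1, the same 47 genes moved little under DHEA. In the test over all arrays 2 fell, the replication helicase subunit Mcm7 (0.50) and the cyclin Ccnd2 (0.37), and none rose (median -0.16), while 5 fell against control sets 2, 5 and 6 and 1 fell without DHEA animal 3. The mean level of the list was 7.09, 7.06 and 7.08 in the DHEA animals and 7.30, 7.28 and 7.28 in the controls, without overlap, and all 3 DHEA animals lay below all 3 controls in 20 of the 47 genes (18.3% of all genes did so). In a fit to the 6 arrays alone 13 fell and 1 rose, beside 971 falls and 927 rises over all 10411 genes in that fit. The proliferation marker Mki67 was at 5.02, 4.87 and 4.95 against 5.22, 5.19 and 5.29, a difference of -0.29 that was not called. Against the same controls 28 of the 47 rose under Wy-14643.

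The genes furthest above Wy-14643 included a group of amino acid response genes with a shared order of animals. Asns was at 7.92, 8.53 and 9.53 with DHEA, at 6.85, 6.60 and 6.69 with Wy-14643 and at 6.04, 6.12 and 6.43 in the controls, a difference between the compounds of 1.94 (adjusted p = 3.39e-09, 0.03 with the block). Psat1, of serine synthesis, was at 7.84, 8.52 and 9.48 against 6.86, 7.29 and 6.90 with Wy-14643, a difference of 1.59 (adjusted p = 5.32e-06). Fgf21, a liver hormone of fasting and stress, was at 8.16, 8.22 and 11.02 with DHEA and at 7.37, 7.46 and 7.40 with Wy-14643, a difference of 1.72 (adjusted p = 0.000249) that did not pass with the block (adjusted p = 0.132). For all 3 genes DHEA animal 3 was the highest. Against control set 1 Fgf21 rose by 1.86, and by 0.92 without that animal (adjusted p = 0.000253).

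**Figure D5:**
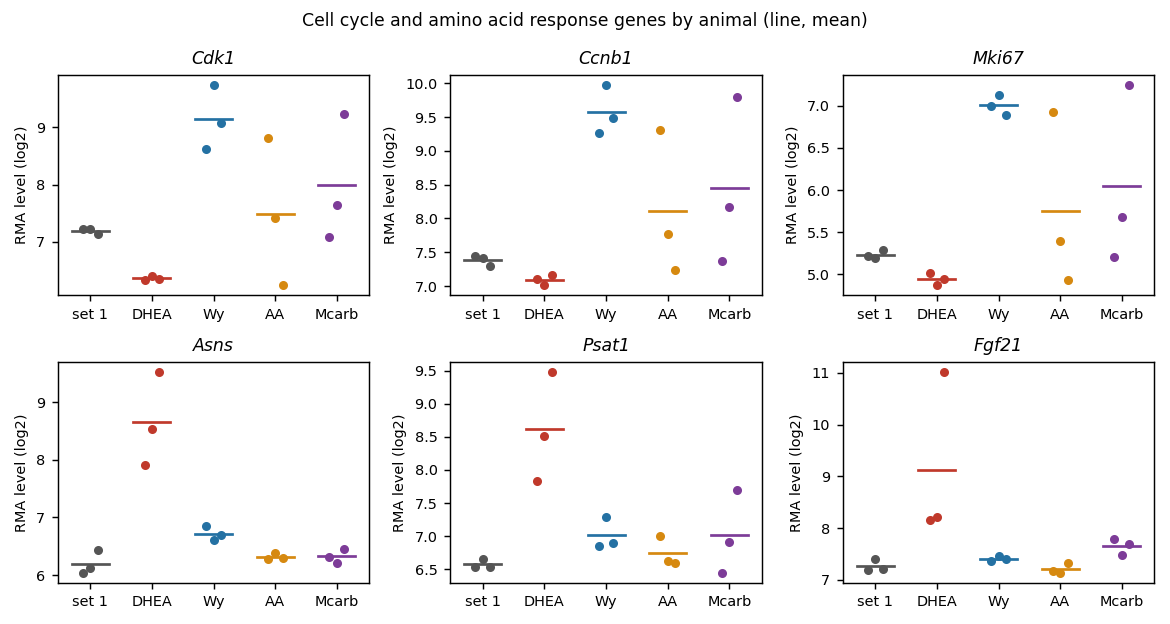
RMA level (log2, vertical axes, not starting at 0) of 3 cell cycle genes (top) and 3 genes of the amino acid and stress response (bottom) in each animal (dots) with group means (lines) for control set 1, DHEA, Wy-14643, AA and Mcarb. The DHEA means of Cdk1, Ccnb1 and Mki67 are the lowest of the 5 groups, with the 3 animals close together, and all 3 genes are high under Wy-14643, and Asns, Psat1 and Fgf21 are highest in the DHEA animals, with animal 3 on top.

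Other genes higher with DHEA than with Wy-14643 came from several roles. Hamp, the iron hormone hepcidin, was at 13.65, 13.38 and 13.72 with DHEA and at 8.89, 11.68 and 12.16 with Wy-14643, a gap of 2.67 that did not pass with the block (adjusted p = 0.0692). Against control set 1 Hamp was not called (0.69). The glucuronosyltransferase Ugt2b1 (1.86), Gpx2 (1.71, not called without DHEA animal 3), Cyp3a9 (1.63) and the metallothionein Mt2A (1.53) completed the 8 largest. Relative to control set 1, Ugt2b1, Cyp3a9 and Mt2A stood at 0.12, -1.02 and 0.37 under DHEA, none of them called. Under Wy-14643 they stood at -1.74, -2.64 and -1.16. Gpx2 rose by 2.05 under DHEA and stood at 0.33 under Wy-14643. Of the 25 CAR and PXR targets 9 were higher with DHEA than with Wy-14643 and none lower, 7 with the block, including Abcc3 (1.10) and Cyp3a23-3a1 (0.80). Relative to control set 1, Wy-14643 raised 2 of the 25 and lowered 8, while DHEA raised 7 and lowered 2. Trib3 (1.21), Gpam (0.87), Cebpa (0.72), Rxra (0.50) and Hnf4a (0.49) were also higher with DHEA, and so were Apoa2 (1.01) and Apoa5 (0.94), whereas Cyp17a1 was lower by 1.07.

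The 14-day AA and Mcarb animals gave a comparison at the same duration, with other compounds and doses. Against these 6 animals 982 genes were higher under DHEA (9.43%) and 1163 lower (11.2%). Over probe sets the counts were 1331 higher (8.39%) and 1554 lower (9.79%), and after centring each array on its median 1685 higher and 1231 lower, so the balance of directions depends on the scaling. The lipid lists behaved much as they did against control set 1, with 22 of 26 mitochondrial and 16 of 28 peroxisomal members higher.

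Interferon-induced and antigen presentation genes were 28 of 31 lower under DHEA than under AA and Mcarb, and none was higher (median -0.73). Usp18, an interferon-induced protease, was at 8.40, 8.74 and 8.73 with DHEA, between 10.64 and 11.51 in the AA and Mcarb animals, and at 8.92, 8.72 and 8.73 in the controls. Against control set 1, 4 of the 31 genes fell under DHEA and 1 rose. Cell cycle genes were lower than under AA and Mcarb in 30 of 47 members. The AA and Mcarb animals spread widely there, with Cdk1 between 6.24 and 9.24.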

How the data were processed

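The series holds 63 liver arrays in 21 groups of 3 animals. Per the labels, the values deposited by the authors are log2 RMA levels, with the RMA version and settings not given in the sources used here. Depth does not apply to arrays, and 3 animals per group limit the precision: an exact two-sided permutation test of 3 against 3 cannot go below p = 0.1.

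With limma 3.58.1 in R 4.3.3, each of the 15866 probe sets was fitted with 1 mean per group over all arrays, and the Benjamini-Hochberg adjustment covered the whole table. Per gene (10411), the brightest probe set with a single symbol in the platform annotation was used; 12783 had 1 symbol, 312 several and 2771 none. Named are the 12 highest and 12 lowest called genes, and 8 and 8 against Wy-14643. Also named are some genes the study discusses, Abcc9 beside them, and members of 26 pathway and 11 marker or housekeeping lists. Comparison, lists and genes were chosen with earlier results of these data known. The fit was tested on simulated data.

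The labels name no pairs of animals, and the main fit used none. Replicate number served as a block only in an alternative fit to the compared arrays. Deviations of same-numbered DHEA and Wy-14643 animals correlated weakly, at 0.15, 0.132 and 0.146. The study's methods text and compound table name different cellulose vehicles, and the labels were followed. Alternatives were array weights, trend and robust variance, median centring, the compared arrays alone, a fold criterion, omission of dim probe sets, other control sets, probe set medians and leaving out each animal.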

Additional observations from a re-analysis of the deposited data

How the results depend on the processing

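No paired analysis was possible because DHEA (1 to 3) and its controls (4 to 6) share no replicate number. The fits with a replicate block used the compared arrays alone. Against Wy-14643 the block fit gave 189 probe sets higher and 273 lower. The main fit over all arrays gave 666 and 567, and the compared arrays without a block 225 and 276. Against AA and Mcarb the block fit gave 770 and 755 (1331 and 1554 in the main fit). Same-numbered animals correlated there between -0.246 and 0.009. Among the 12 highest and 12 lowest genes, Obp3 (adjusted p = 0.0509) and Marveld1 (0.0517) were no longer called against Wy-14643 in the block fit. Apoa4 (0.0215) was called there, and so was Cyp2c12 (0.0438). With at least 1.5-fold required, 366 probe sets were higher and 352 lower against control set 1, 73 and 159 against Wy-14643, and 294 and 390 against AA and Mcarb. The same criterion left 3 apolipoproteins, 7 plasma protein genes, 2 chaperone or stress genes and 7 stellate markers lower and 16 proteasome and 3 respiratory chain genes higher. With the compared arrays alone, 225 were higher and 276 lower than under Wy-14643, and 921 were lower than under AA and Mcarb. With control sets 2, 5 and 6 alone, 7 stellate, 2 macrophage and 3 endothelial markers were lower, and with all 4 sets pooled 4 macrophage markers.

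Leaving out 1 animal gave 1027 to 1335 higher and 841 to 1124 lower against control set 1, lowest without DHEA animal 3 (841), 298 to 583 and 341 to 493 against Wy-14643 (298 and 341 without DHEA animal 3, and 411 and 407 higher without Wy-14643 animals 1 and 3), and 935 to 1322 and 1044 to 1539 against AA and Mcarb. Of list members, 11 to 15 peroxisomal, 19 to 20 mitochondrial, 10 to 10 thioesterase and synthetase, 7 to 8 omega-oxidation, 14 to 15 lipid handling, 23 to 26 proteasome and 22 to 28 respiratory chain genes rose, and 7 to 8 apolipoprotein, 26 to 30 plasma protein, 7 to 10 chaperone or stress (7 without control animal 5), 10 to 15 stellate, 3 to 8 macrophage and 3 to 6 endothelial genes fell. Signs turned for Fgb (0.05) and Sox4 (0.09) with the median of their probe sets, and for Fosb (-0.08) and Lyve1 (0.11) with control sets 2, 5 and 6. Of 333 alternative values of the 24 genes furthest from control set 1, 331 kept direction and call, and Nrep lost its call without DHEA animal 3 and with 6 arrays. Of 342 called list members, 313 kept their call with pooled controls and 273 without DHEA animal 3. Leaving out a single animal also ended, at least once, the calls of Abcc2, Apoa2, Apoa5, Apoh, Asl, Car3, Ccnd2, Cpt1a, Cyp4a8, Hal, Hsd17b13, Mcm7, Pex14 and Por among the genes named. Causes were not tested.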

Other observations

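In 11 genes, different probe sets were called in opposite directions between DHEA and control set 1. The widest gaps were in Tgoln2, a protein of the trans-Golgi network (0.72 and -0.54), Tram1, of the endoplasmic reticulum translocon (0.53 and -0.59), and Aplp2, a relative of the amyloid precursor protein (0.58 and -0.42). Smaller gaps were in Prkacb (0.37 and -0.31), Podxl (0.34 and -0.32) and Cdk14 (0.23 and -0.41). Values of these genes belong to a probe set and not to the gene as a whole. Some other genes named above also had a dimmer probe set that was not called. Among these were Acot7 (0.09), Eci1 (-0.12), Plin2 (-0.05), Prodh (-0.22) and Dusp1 (-0.83).

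The 4 erythroid markers were not called against control set 1 (median -0.36), and all 4 fell against control sets 2, 5 and 6 (median -0.69). Among pericentral hepatocyte markers Oat and regucalcin Rgn (1.30) fell, Cyp2e1 (0.40) and Tbx3 (0.45) rose, and glutamine synthetase Glul was not called (-0.27).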
